A study of Mus musculus with 9 samples.

Results

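The expression of 10 neutrophil genes was measured in mouse spinal cord by 3′ mRNA sequencing. They were S100a8, S100a9, Retnlg, Ngp, Camp, Mmp8, Ly6g, Csf3r, Cxcr2 and Il1r2, and they were picked by symbol out of the 40879 gene symbols of the count table. They were chosen after the counts had been seen, because neutrophil markers had not fallen with treatment as other immune genes had. The comparison of GV1001 with vehicle is therefore given for them as a description, with no test. By mean level that description held for 6 of the 10 genes, and the other 4 were lower with GV1001.

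Neutrophils are short-lived white blood cells made in the bone marrow. They carry granules filled with antimicrobial proteins and proteases, and they leave the blood at sites of inflammation along gradients of chemokines. Granule genes are transcribed mostly while the cells mature in the marrow, whereas surface receptors for chemokines and growth factors are expressed by mature cells. Experimental autoimmune encephalomyelitis, abbreviated EAE, models multiple sclerosis through an immune attack on myelin. Neutrophils are among the cells that enter the spinal cord in it.

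All 9 libraries came from spinal cord of wild-type mice, 3 in each of 3 groups. The first group had EAE and received GV1001, a peptide derived from telomerase. The second had EAE and received vehicle, and the third was naive. The labels used here give neither the age and strain of the mice nor how EAE was induced, when tissue was taken, or the dose and timing of GV1001. They do not say that the replicates of a group were separate animals, so the p-values measure the spread between these samples, which may be technical. For RNA extraction the labels name TRIzol or a Maxwell kit without saying which sample had which. Total counts were 5247246 to 6174870 per library. Levels are given in CPM, counts scaled to a common library total. The 3′ kit reads transcript ends, so CPM is not scaled to gene length and levels are not compared between genes. A level of 3 counts, 0.486 to 0.572 CPM, was taken as the floor of a library, and it covers counting error only. In whole tissue, fewer cells of a type and less RNA per cell cannot be told apart.

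The promoters of S100a8, S100a9, Retnlg, Ngp and Camp are shown because the levels of these 5 genes moved together over the libraries, and that of Csf3r because its level did not move with them. Each covers 250 bases before to 50 bases after the start site in RefSeq on build GRCm38.p6, printed 5′ to 3′ along the gene's strand. The counts were made on GRCm39, so the coordinates belong to the promoters only. Capitals mark matches, on either strand, to TTGCNNAA, GAGGAAG and TATAAA. TTGCNNAA is a core of the motif bound by C/EBP factors, and GAGGAAG a core bound by ETS factors such as PU.1. TATAAA has the letters of the TATA box, and it is marked wherever it lies in the window. No matches overlap in these promoters.
S100a8, chr3:90668821-90669120 on the plus strand, is shown first.
S100a8: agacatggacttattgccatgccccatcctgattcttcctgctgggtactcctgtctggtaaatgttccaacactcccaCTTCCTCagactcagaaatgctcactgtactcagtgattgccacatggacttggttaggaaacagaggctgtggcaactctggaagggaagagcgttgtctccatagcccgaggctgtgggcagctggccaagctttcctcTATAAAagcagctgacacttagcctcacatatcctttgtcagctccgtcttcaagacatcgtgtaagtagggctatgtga
S100a9 lies at chr3:90695672-90695971 on the minus strand.
S100a9: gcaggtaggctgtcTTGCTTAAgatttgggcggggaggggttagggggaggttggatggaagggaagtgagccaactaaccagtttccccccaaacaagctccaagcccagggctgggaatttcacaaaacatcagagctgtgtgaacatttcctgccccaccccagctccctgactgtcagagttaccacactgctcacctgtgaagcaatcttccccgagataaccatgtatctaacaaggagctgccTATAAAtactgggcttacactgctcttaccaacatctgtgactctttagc
Retnlg lies at chr16:48872358-48872657 on the plus strand.
Retnlg: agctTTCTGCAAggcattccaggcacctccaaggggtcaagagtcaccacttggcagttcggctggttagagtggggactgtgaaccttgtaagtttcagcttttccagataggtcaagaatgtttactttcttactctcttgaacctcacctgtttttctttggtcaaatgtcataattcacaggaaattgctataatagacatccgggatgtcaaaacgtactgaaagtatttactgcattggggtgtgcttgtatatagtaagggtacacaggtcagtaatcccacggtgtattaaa
Ngp lies at chr9:110419558-110419857 on the plus strand.
Ngp: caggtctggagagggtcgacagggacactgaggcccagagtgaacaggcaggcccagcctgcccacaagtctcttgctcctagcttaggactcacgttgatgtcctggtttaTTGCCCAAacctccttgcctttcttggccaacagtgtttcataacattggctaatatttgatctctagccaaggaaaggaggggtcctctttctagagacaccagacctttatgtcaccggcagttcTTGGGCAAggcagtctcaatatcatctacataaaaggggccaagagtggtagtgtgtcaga
Camp lies at chr9:109849407-109849706 on the minus strand.
Camp: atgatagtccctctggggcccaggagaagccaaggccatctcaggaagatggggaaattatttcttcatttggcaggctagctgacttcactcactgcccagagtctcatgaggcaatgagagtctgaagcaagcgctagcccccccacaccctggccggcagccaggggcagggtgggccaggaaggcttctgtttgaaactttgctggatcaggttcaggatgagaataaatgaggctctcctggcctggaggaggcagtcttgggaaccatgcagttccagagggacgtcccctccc
Csf3r lies at chr4:126024409-126024708 on the plus strand.
Csf3r: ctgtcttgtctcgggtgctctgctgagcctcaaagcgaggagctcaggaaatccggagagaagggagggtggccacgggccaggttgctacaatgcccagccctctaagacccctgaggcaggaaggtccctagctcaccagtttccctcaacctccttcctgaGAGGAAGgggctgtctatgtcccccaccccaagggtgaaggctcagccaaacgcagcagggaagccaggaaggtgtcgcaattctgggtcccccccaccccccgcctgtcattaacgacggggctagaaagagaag

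All 10 genes had a promoter in the RefSeq table, and Ly6g had a pair of start sites. TTGCNNAA was found in the promoters of 5 of the 10 genes (S100a9, Mmp8, Ngp, Ly6g and Retnlg), against 10.8% of 32851 mouse promoters of the same length. GAGGAAG was found for 4 genes (S100a8, Csf3r, Mmp8 and Ly6g) and TATAAA for 4 (S100a8, S100a9, Mmp8 and Ly6g), and each is in 13.6% of all promoters. These shares count promoters rather than genes, and by promoter each motif was in 5 of the 11 of these genes. Ngp held 2 matches to TTGCNNAA, and Camp held none of the motifs. Counted from the start site, the TATAAA match began at base −30 in S100a8, 1 in S100a9 and −3 in Mmp8. In Ly6g it began at −99 or −167, depending on the start site. These letters alone do not show a TATA box. The motifs were chosen after the counts had been seen, and a match describes letters, not binding.

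The alarmins S100a8 and S100a9 form calprotectin, a calcium- and zinc-binding protein that fills the cytosol of neutrophils and is also made by monocytes. S100a8 was at 127, 88.2 and 140 CPM in the GV1001 libraries, 72.2, 95.3 and 36.3 CPM in the vehicle libraries and 9.27, 37.8 and 27.6 CPM in the naive libraries. The GV1001 libraries were all above the naive ones, while vehicle overlapped both other groups. S100a9 was at 148, 101 and 200.0 CPM with GV1001, 88.3, 144 and 48.5 CPM with vehicle and 21.2, 93.4 and 45.8 CPM in naive cords. Its highest library was GV1001 replicate 3 and its lowest naive replicate 1, as for S100a8. The ratio of S100a9 to S100a8 counts was 1.17, 1.15 and 1.42 with GV1001, 1.22, 1.51 and 1.34 with vehicle and 2.29, 2.47 and 1.66 in naive cords. All 6 EAE libraries were below all 3 naive libraries in this ratio, which was chosen after its values were seen.

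Among the granule genes, Ngp encodes neutrophilic granule protein, Camp the cathelicidin antimicrobial peptide and Mmp8 neutrophil collagenase. Ngp was at 35.5, 21.2 and 34.01 CPM with GV1001, 10.1, 29.2 and 14.5 CPM with vehicle and 2.67, 15.9 and 8.12 CPM in naive cords. GV1001 libraries were above every naive library and overlapped those of vehicle. Camp was at 27.4, 9.87 and 26.7 CPM with GV1001, 10.1, 15.4 and 12.4 CPM with vehicle and 4.10, 10.7 and 6.31 CPM in naive cords. Replicates 1 and 3 of GV1001 stood above all other libraries, and replicate 2 lay below all vehicle libraries. Mmp8 was at 14.7, 5.11 and 10.04 CPM with GV1001, 16.7, 11.8 and 12.7 CPM with vehicle and 6.06, 10.01 and 5.41 CPM in naive cords. All vehicle libraries were above all naive ones, and GV1001 overlapped both.

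Retnlg encodes a secreted resistin-like protein of mouse neutrophils. It was at 11.3, 4.06 and 16.5 CPM with GV1001, 5.93, 7.62 and 2.61 CPM with vehicle and 0.178, 3.97 and 2.17 CPM in naive cords. GV1001 was above naive in every library, and GV1001 overlapped vehicle. Retnlg belongs to a family of similar genes, as does Ly6g, so the assignment of reads within these families is uncertain.

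The surface proteins had few counts. Ly6g, the surface antigen by which mouse neutrophils are usually sorted, had 10, 10 and 12 counts with GV1001, 1, 3 and 6 with vehicle and 2, 8 and 1 in naive cords. All GV1001 libraries were above all others, at 1.76 to 1.94 CPM. Csf3r, the receptor for the growth factor G-CSF, had 6, 15 and 11 counts with GV1001, 41, 3 and 26 with vehicle and 9, 3 and 1 in naive cords. It was highest in vehicle replicates 1 and 3 and within the range of the naive libraries in vehicle replicate 2. Cxcr2, the chemokine receptor that draws neutrophils out of the marrow and into tissue, had 1, 0 and 5 counts with GV1001, 7, 12 and 7 with vehicle and 0, 1 and 1 in naive cords. The vehicle libraries were above all others. Il1r2, a decoy receptor for interleukin-1, had 6, 4 and 1 counts with GV1001, 10, 4 and 5 with vehicle and 3, 2 and 4 in naive cords. Vehicle was above naive in CPM in every library, with the lowest vehicle library at 0.762 CPM and the highest naive one at 0.722 CPM.

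**Figure D1:**
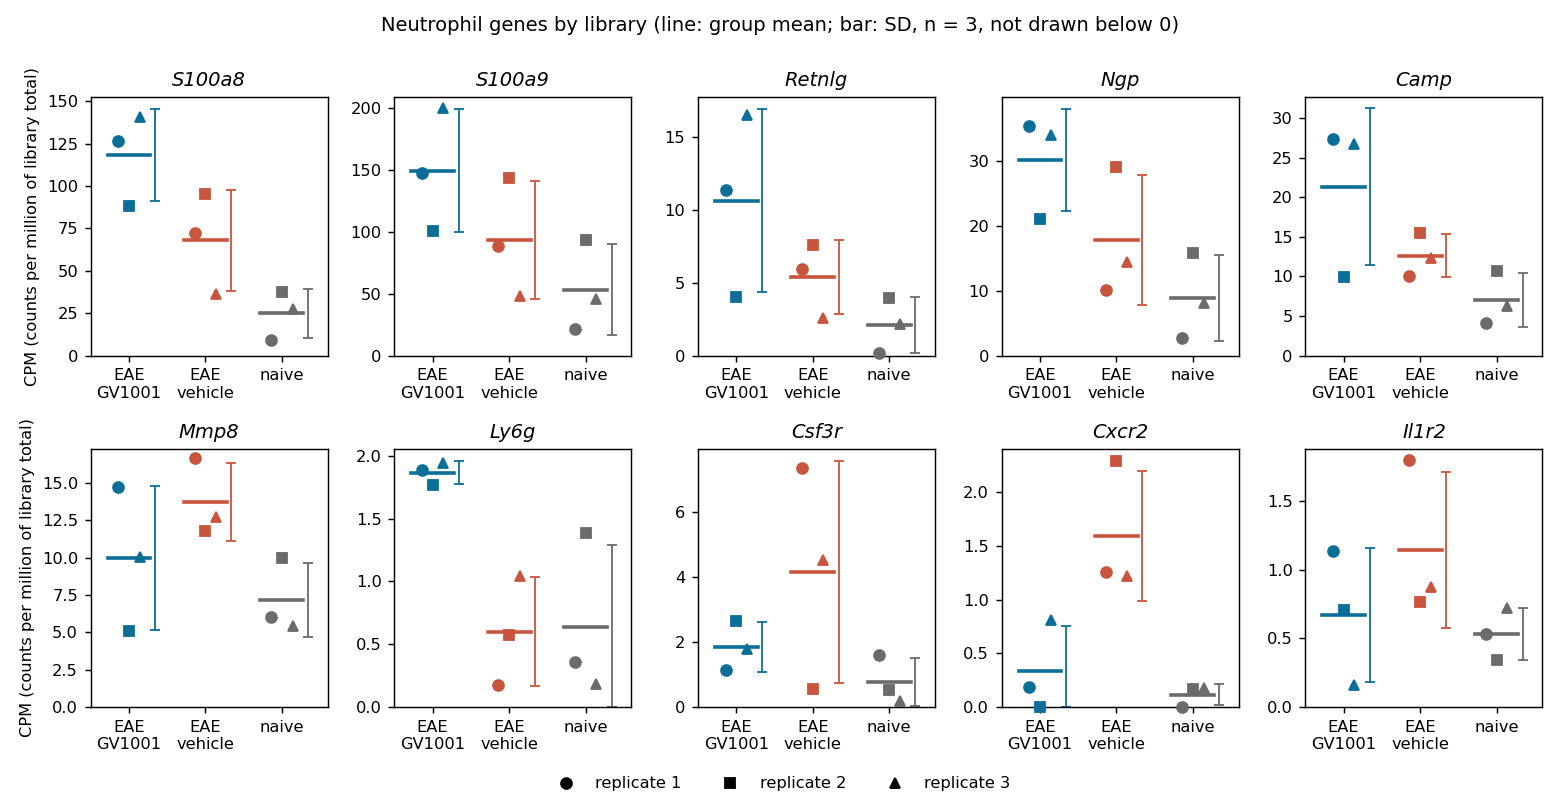
Level in CPM (y axis) of each of the 10 genes in the 9 libraries, by group (x axis), with the group mean as a line and the SD (n = 3) as a bar that is not drawn below 0. S100a8, S100a9, Retnlg, Ngp and Camp have their highest mean with GV1001 and their lowest in naive cords, and Mmp8, Csf3r, Cxcr2 and Il1r2 have their highest mean with vehicle.

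The group means had 3 orders. S100a8, S100a9, Retnlg, Ngp and Camp averaged most with GV1001, less with vehicle and least in naive cords. S100a8 averaged 118 ± 27.1 CPM with GV1001, 67.9 ± 29.8 with vehicle and 24.9 ± 14.5 in naive cords (SD, n = 3 each). Csf3r, Cxcr2, Il1r2 and Mmp8 averaged most with vehicle, less with GV1001 and least in naive cords. Csf3r averaged 1.85 ± 0.758 CPM with GV1001, 4.16 ± 3.41 with vehicle and 0.767 ± 0.744 in naive cords (SD, n = 3 each). Ly6g averaged 1.87 ± 0.0925 CPM with GV1001, 0.599 ± 0.434 with vehicle and 0.639 ± 0.648 in naive cords (SD, n = 3 each). Among neighbours in these orders, groups did not overlap for Cxcr2 between GV1001 and vehicle and for Ly6g between GV1001 and naive cords. All other neighbouring groups overlapped.

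To ask whether the genes were higher in EAE, the 6 EAE libraries were set against the 3 naive libraries. This contrast is orthogonal to the one that chose the genes. All 10 genes had a higher mean CPM in EAE, as did 55.6% of the genes with a count. Of the 10, 7 had enough counts to be fitted, and a gene that enters through its high group, as Csf3r did, had to differ. None of the 10 passed an adjusted p of 0.05 in edgeR's quasi-likelihood test over 15351 genes, where 0.00651% of genes were called higher. At an unadjusted p of 0.05, 5 of the 10 were higher (S100a8, S100a9, Retnlg, Ngp and Camp), against 8.81% of tested genes. None of the 10 was higher in every EAE library than in every naive library, against 3.31% of the genes with a count and 5.25% of tested genes.

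S100a8 averaged 93.2 ± 37.6 CPM in EAE (SD, n = 6) and 24.9 ± 14.5 CPM in naive cords (SD, n = 3). Its log2 fold change was 1.82 ± 0.40 (SE), with an edgeR adjusted p of 0.167. DESeq2 gave it an adjusted p of 0.0136, and over the alternatives the adjusted p ran between 0.0136 and 0.531. Without vehicle replicate 2, the library with the most hemoglobin, S100a8 passed in edgeR at 1.66 with an adjusted p of 0.0468, in a fit that called 2.45% of tested genes higher. Retnlg had a log2 fold change of 1.80 ± 0.65 (SE), at an edgeR adjusted p of 0.245. Ngp was at 1.34 ± 0.45, Camp at 1.18 ± 0.38 and S100a9 at 1.12 ± 0.44 (SE), with edgeR adjusted p of 0.22, 0.208 and 0.272. DESeq2 called Camp at an adjusted p of 0.0346, and over the alternatives that p ran between 0.0346 and 0.541. DESeq2 thus called 2 of the 10 genes, against 3% of the genes it tested, and limma-voom called none. Mmp8 was at 0.67 ± 0.33 (SE), with an edgeR adjusted p of 0.363. Csf3r entered the fit through EAE libraries alone, so its log2 fold change of 1.81 ± 0.83 (SE) is a description with no test. The naive libraries moved the values by most. Leaving out naive replicate 1 gave S100a9 a log2 fold change of 0.74, and leaving out naive replicate 2 gave 1.78. Ngp was at 2.06 without naive replicate 2, and Csf3r at 2.89 without naive replicate 1.

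Vehicle was also set against naive. The vehicle libraries took part in choosing the genes, so the values describe more than they test. The mean CPM was higher with vehicle for 9 of the 10 genes, against 51.2% of the genes with a count, and Ly6g was the exception. None of the 10 passed in edgeR, where 0.0195% of tested genes were called higher, and none passed in limma-voom or in DESeq2, which called 5.37% higher. At an unadjusted p of 0.05, S100a8, Csf3r and Mmp8 were higher, 3 of the 10 against 11.3% of tested genes, and Csf3r had to differ to enter the fit. Vehicle and naive did not overlap for 3 of the 10 (Cxcr2, Il1r2 and Mmp8), against 9.52% of the genes with a count. Among the 7 with enough counts it was Mmp8 alone, beside 13.6% of tested genes. Csf3r had a log2 fold change of 2.40 ± 0.84 (SE), and without vehicle replicate 2, where 7.46% of tested genes were called higher, it was at 2.90. It was too low for the fit of the 6 vehicle and naive libraries alone, and its values are a description. S100a8 was at 1.42 ± 0.44 and S100a9 at 0.77 ± 0.49 (SE), with edgeR adjusted p of 0.112 and 0.433. Without vehicle replicate 2, S100a9 was at 0.34 and Ngp at 0.44, against 0.96 ± 0.52 (SE) for Ngp with all libraries.

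The genes under the filter are given as ratios of summed counts with an exact Poisson interval at 95%, which covers counting error only. Cxcr2 had 32 counts in EAE and 2 in naive cords, a ratio per library total of 8.05 (2.05 to 69.3). With vehicle it had 26 counts, a ratio to naive of 13.3 (3.33 to 116). The vehicle libraries took part in choosing the genes, so that ratio is a description. Ly6g had 42 counts in EAE and 11 in naive cords, a ratio of 1.92 (0.972 to 4.14). Il1r2 had 30 counts in EAE and 9 in naive cords, a ratio of 1.68 (0.776 to 4.01). In Ly6g and Il1r2 the interval included 1.

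GV1001 against vehicle, the contrast that chose the genes, had a higher mean CPM for 6 of the 10 and a lower one for Csf3r, Cxcr2, Il1r2 and Mmp8. Among genes with a count, 45% had a higher mean CPM with GV1001. The log2 fold change of GV1001 over vehicle was 0.81 ± 0.40 for S100a8, 0.69 ± 0.47 for S100a9, 1.01 ± 0.57 for Retnlg, 0.77 ± 0.45 for Ngp and 0.77 ± 0.38 for Camp (SE). It was −0.47 ± 0.35 for Mmp8 and −1.17 ± 0.69 for Csf3r (SE). The signs of these 7 values held when any 1 library was left out, but several sizes moved. Csf3r was at −0.46 without vehicle replicate 1, and Mmp8 at −0.16 without GV1001 replicate 2 and −0.85 without GV1001 replicate 1. Without vehicle replicate 3, S100a8 was at 0.49 and S100a9 at 0.36. Without vehicle replicate 2, S100a9 was at 1.11 and Ngp at 1.29. Ngp was at 0.51 without vehicle replicate 1, and Retnlg at 0.51 without GV1001 replicate 3. Ly6g had 32 counts with GV1001 and 10 with vehicle, a ratio of 3.09, and its groups did not overlap. Cxcr2 had 6 counts with GV1001 and 26 with vehicle, a ratio of 0.223, and its groups did not overlap either. Of the genes with a count, 3.99% were higher and 4.21% lower with GV1001 in every library, and of tested genes 5.44% and 5.03%. Against naive cords, which share the GV1001 libraries with the comparison above, S100a8 was at 2.22 ± 0.43 and Retnlg at 2.30 ± 0.68 (SE). All 10 genes had a higher mean CPM with GV1001 than in naive cords, as did 51% of the genes with a count. All 3 GV1001 libraries lay above all 3 naive ones for 5 of the 10 genes (S100a8, S100a9, Ly6g, Retnlg and Ngp), against 7% of the genes with a count and 10.2% of tested genes.

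**Figure D2:**
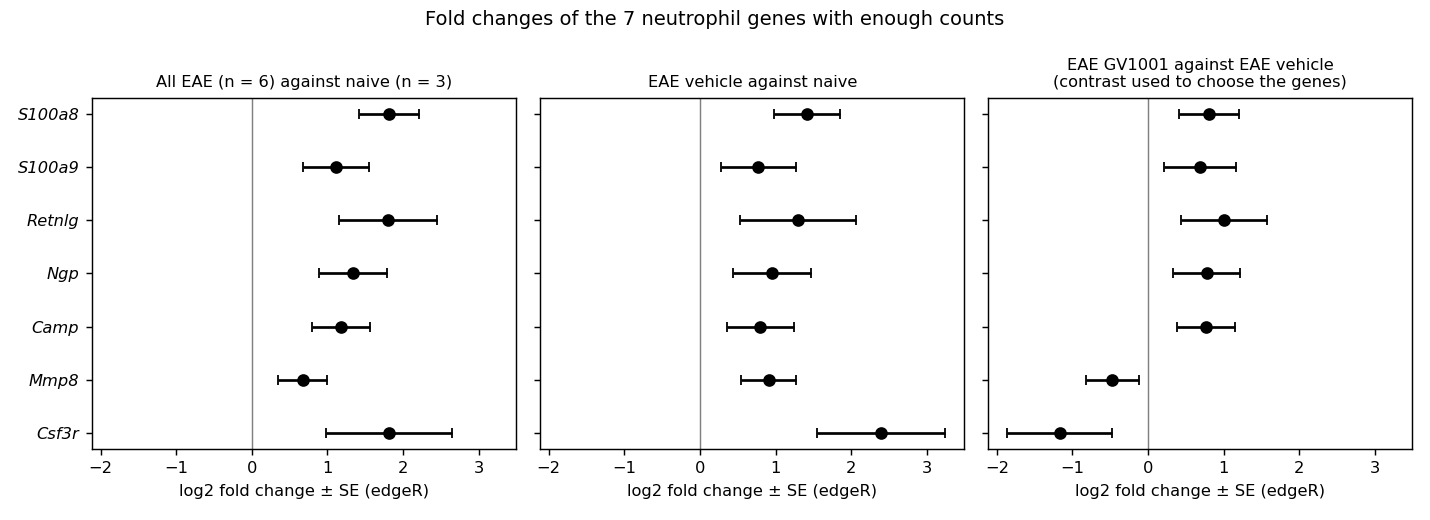
Log2 fold change with its SE (x axis) of the 7 genes with enough counts, 1 row per gene (y axis), in 3 comparisons. In EAE against naive and vehicle against naive all 7 lie above 0, and in GV1001 against vehicle Mmp8 and Csf3r lie below 0.

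Over the 9 libraries, the levels of S100a8, S100a9, Retnlg, Ngp and Camp had pairwise correlations of 0.883 to 0.97 on the log2 scale. With group means removed these were 0.689 to 0.964. The points share library, depth and tissue, so these are descriptions. Csf3r correlated with the 5 at −0.0749 to 0.133, and at −0.768 to −0.543 with group means removed. Mmp8 stood between, at 0.406 to 0.599. Naive replicate 1 was the lowest of all libraries for all 5 genes.

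**Figure D3:**
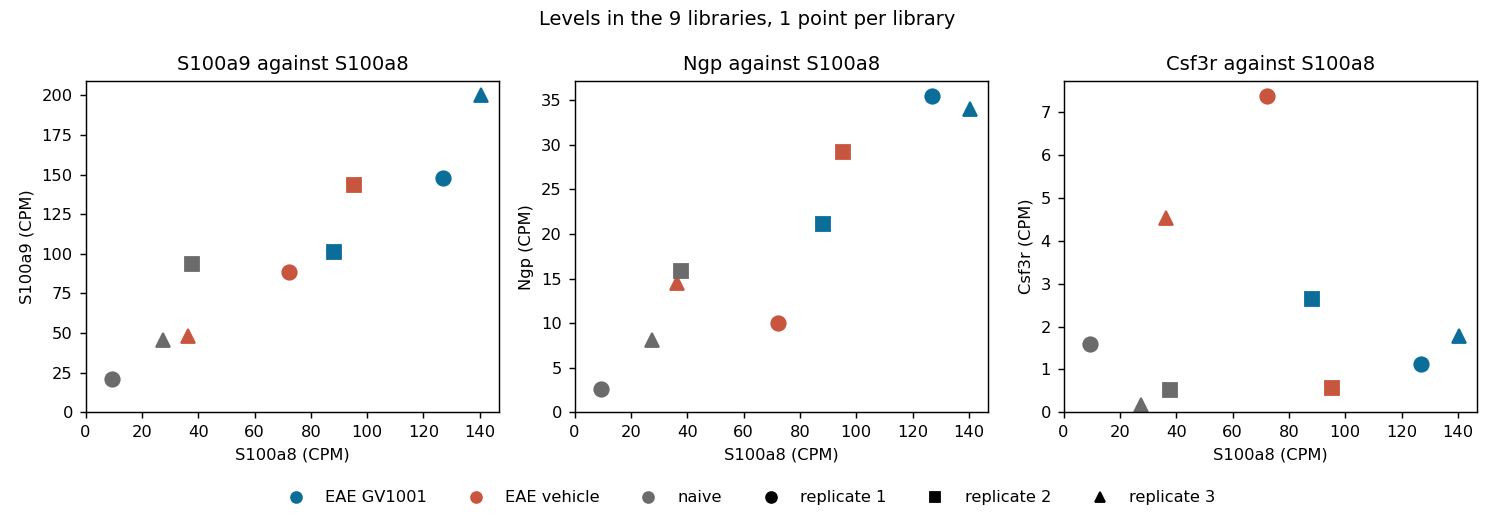
S100a9, Ngp and Csf3r (y axes, CPM) against S100a8 (x axes, CPM), 1 point per library. S100a9 and Ngp are mostly higher where S100a8 is higher. An exception is vehicle replicate 1, which has more S100a8 but less S100a9 and Ngp than naive replicate 2. Csf3r is highest in vehicle replicate 1, at 7.36 CPM.

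Among the other tested genes, the patterns most like the mean of S100a8 and S100a9 over the 9 libraries were those of Tmem101 (r = 0.95), Rrp7a (0.95), Pim3 (0.933) and Tgfb3 (0.932). Wfdc21 and Pglyrp1, antimicrobial genes that mature neutrophils express, came later among the 10 most alike, at 0.871 and 0.865. Spearman correlations of these 6 genes were 0.8 to 0.967. Without the 2 libraries farthest from the median, r was 0.573 for Wfdc21 and 0.88 to 0.953 for the others of the 6. For the mean of Mmp8, Ngp, Camp and Retnlg, the most alike were Bbs7 (0.96), Tmem101 (0.943) and Slc35g1 (0.938). These genes were selected from all tested genes for their likeness.

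Granule genes beyond the 10 did not share a single pattern. Of 27 in the list, 26 were in the table and 19 had enough counts. In EAE against naive, none of the 19 passed in edgeR, 15 were higher at an unadjusted p of 0.05, and DESeq2 called 10 higher, beside 8.81% and 3% of all tested genes. Of those called, Hp, Ncf4 and Wfdc21 entered the fit through EAE libraries alone and had to differ, so these counts describe more than they test. The contents of primary granules, made earliest in the marrow, were Mpo, Elane, Prtn3 and Ctsg, grouped after their values had been seen. Their summed level was 20.2, 9.17 and 14.1 CPM with GV1001, 4.31, 8.77 and 5.23 CPM with vehicle and 2.85, 5.52 and 3.97 CPM in naive cords. In this sum all GV1001 libraries were above all others, at the closest by 9.17 against 8.77 CPM. Taken singly, Elane alone was separated in this way, at 14, 8 and 9 counts with GV1001. Mpo, Prtn3 and Ctsg each overlapped vehicle. Of the 19 granule genes with enough counts, 13 had a lower level with GV1001 than with vehicle by log2 fold change, and 6 a higher one. Ltf, lactoferrin of secondary granules, was at 20.4, 15.2 and 17.8 CPM with GV1001, 4.31, 17.0 and 6.45 CPM with vehicle and 3.39, 9.49 and 5.41 CPM in naive cords. Lcn2, the iron-binding lipocalin that astrocytes also make, was at 26.1, 81.3 and 31.3 CPM with GV1001, 294, 37.4 and 47.9 CPM with vehicle and 1.43, 6.91 and 1.08 CPM in naive cords. Its log2 fold change in EAE was 4.57 ± 0.99 (SE), with an edgeR adjusted p of 0.167.

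Genes of neutrophil surface receptors and adhesion numbered 32, of which 20 had enough counts. None passed in edgeR in EAE against naive, 16 were higher at an unadjusted p of 0.05, and DESeq2 called 12 higher, beside 8.81% and 3% of all tested genes. Of those called, C5ar1, Clec4d, Fcgr4, Itgal, Lilrb4a, Ly6c2, Pilra and Ptafr entered the fit through EAE libraries alone. They had to differ, so these counts describe more than they test. Fcgr3, an Fc receptor, was at a log2 fold change of 2.92 ± 0.74, and Itgam, the integrin CD11b, at 2.07 ± 0.53 (SE), both with an edgeR adjusted p of 0.17. Both are also expressed by monocytes and microglia. The median log2 fold change of GV1001 over vehicle was −1.37 over these 20 genes and −0.77 over the 19 granule genes, against −0.00885 over all tested genes. Cxcr1 had no count in any library.

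Chemokines and cytokines that attract neutrophils or release them from marrow numbered 23, of which 10 had enough counts. None passed in edgeR in EAE against naive, 5 were higher at an unadjusted p of 0.05, and DESeq2 called Il1b and Tnf higher, beside 8.81% and 3% of all tested genes. Il1b, Tnf, Cxcl1 and Cxcl2 entered the fit through EAE libraries alone and had to differ, so these counts describe more than they test. Cxcl1 and Cxcl2, ligands of Cxcr2, were at log2 fold changes of 2.57 ± 0.83 and 3.43 ± 1.05 (SE), a description with no test. Csf3, which encodes G-CSF, the ligand of Csf3r, had no count in any library. Among the 14 genes of the interleukin-1 system, 9 had enough counts and none passed in edgeR. At an unadjusted p of 0.05, 4 were higher in EAE, and DESeq2 called Il1b, Il1r1 and Il1rn, beside the same 8.81% and 3%. Il1b was at 4.72 ± 1.41 (SE). Il1b and Il1rn entered the fit through EAE libraries alone, so their values are a description with no test. Binding partners and relatives of the alarmins numbered 14, of which 12 had enough counts and none passed in edgeR. At an unadjusted p of 0.05, 6 were higher and 1 lower in EAE, and DESeq2 called Cd33 and S100a4 higher and S100b lower. Of all tested genes, 8.81% and 3% were higher. Cd33 entered the fit through EAE libraries alone and had to differ. Counted in both directions, 2353 tested genes were at that unadjusted p, 1353 of them higher. DESeq2 called 574 genes in both directions, 460 of them higher.

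Genes of neutrophil development numbered 16, of which 10 had enough counts. None passed in edgeR in EAE against naive, 6 were higher at an unadjusted p of 0.05, and DESeq2 called Cebpa, Cebpd and Chil3 higher, beside 8.81% and 3% of all tested genes. Chil3 entered the fit through EAE libraries alone and had to differ. Cebpd, a C/EBP factor, was at a log2 fold change of 2.34 ± 0.41 (SE), with an edgeR adjusted p of 0.122. With GV1001 against vehicle, 6 of these 10 genes had a lower level by log2 fold change and 4 a higher one. The median was −0.49, against −0.00885 over all tested genes. Ms4a3, a marker of precursors, was at 0.567, 1.41 and 0.972 CPM with GV1001, 0, 0.191 and 0.349 CPM with vehicle and 0, 1.73 and 0.722 CPM in naive cords. It had too few counts for the fit, and its vehicle libraries were under the floor. Other granulocytes had 3 tested genes of 18, with none called by edgeR or DESeq2 and none at an unadjusted p of 0.05.

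Other cells and tissues differed between libraries as well. Summed over the 24 monocyte and macrophage genes, which include Lyz2, Ccr2 and Csf1r, the level was 336, 1095 and 511 CPM with GV1001, 3007, 449 and 1059 CPM with vehicle and 217, 265 and 216.5 CPM in naive cords. It was highest in vehicle replicate 1, as were Csf3r, Il1r2 and Mmp8. The hemoglobin genes summed to 686, 433 and 392 CPM with GV1001, 252, 4819 and 713 CPM with vehicle and 370, 681 and 674 CPM in naive cords. Vehicle replicate 2, which held the most hemoglobin, also held the most S100a8, S100a9, Retnlg, Ngp and Camp within its group. Among naive cords, replicate 2 held the most of each of these genes, but its hemoglobin was close to that of replicate 3, at 681 and 674 CPM. The GV1001 group was mixed. Its replicate 3 held the least hemoglobin but the most S100a8, S100a9 and Retnlg, and its replicate 1 the most hemoglobin, Ngp and Camp. Skeletal muscle genes summed to 5147, 1395 and 497 CPM with GV1001, 148, 601 and 27.0 CPM with vehicle and 34.6, 41.6 and 282.5 CPM in naive cords. Of the 15 muscle genes, 12 were higher with GV1001 than in naive cords in every library, beside 10.2% of tested genes. Schwann cell genes, which mark nerve roots, summed to 2916, 3052 and 4000 CPM with GV1001, 996, 2166 and 3042 CPM with vehicle and 2025, 1592 and 2062 CPM in naive cords. Of these 14 genes, 10 were higher with GV1001 than in naive cords in every library, beside 10.2% of tested genes. The 10 neutrophil genes summed to 368, 234.5 and 432 CPM with GV1001, 214, 307 and 135 CPM with vehicle and 46.0, 174 and 96.7 CPM in naive cords. Whether the monocyte, blood, muscle or Schwann cell signals have a part in the neutrophil values was not tested.

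**Figure D4:**
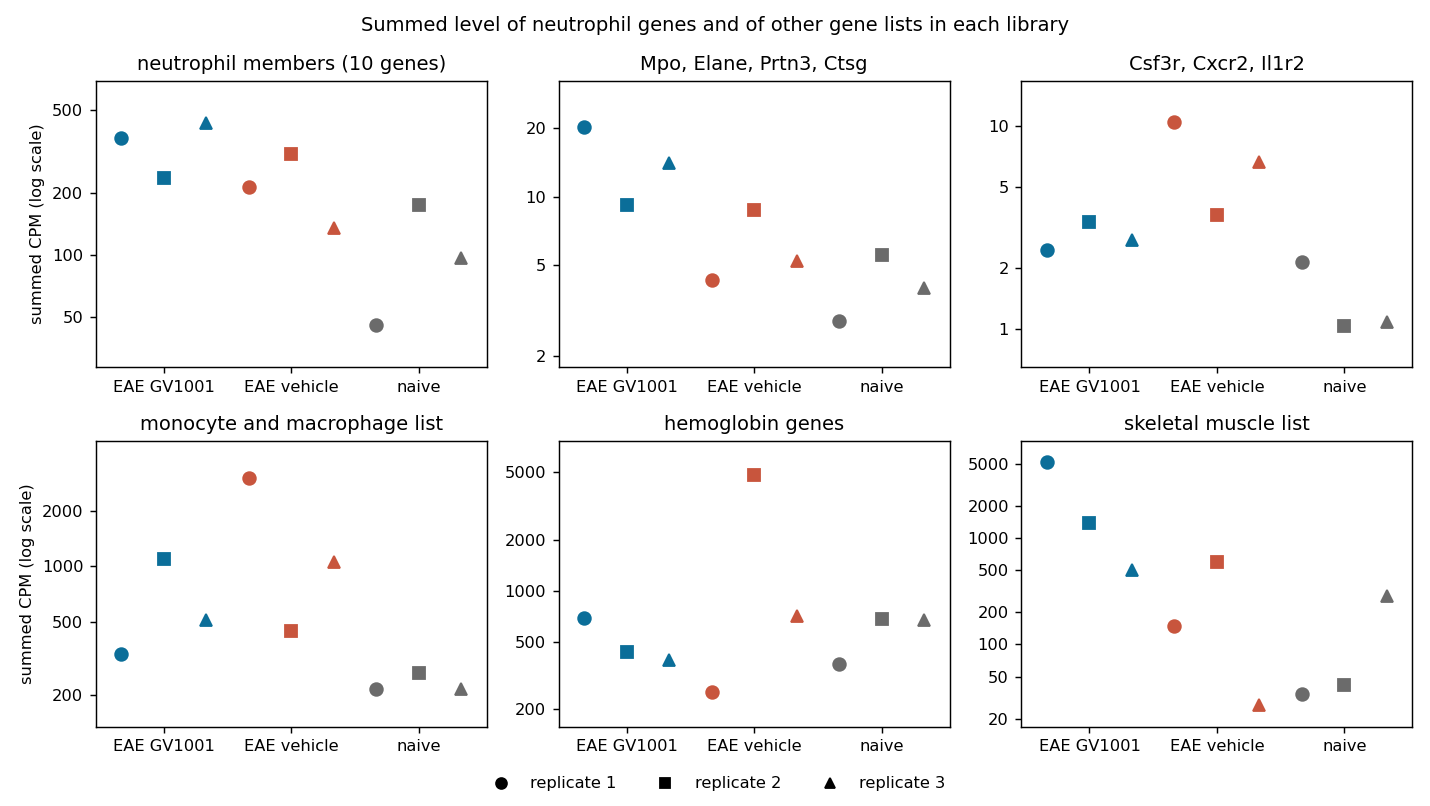
Summed CPM on a log scale (y axis) of the 10 neutrophil genes and of 5 other gene groups in each library, by group (x axis), 1 point per library. Vehicle replicate 2 stands apart in hemoglobin at 4819 CPM, and vehicle replicate 1 is highest in the monocyte list at 3007 CPM.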

How the data were processed

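Whole spinal cord was profiled in 9 libraries, and groups were taken from sample titles and treatment labels. The authors deposited raw counts per gene symbol in 1 table and in single-library files with the same values. Per the submitters' processing notes, FastQC, STAR, HTSeq and build GRCm39 were used. Versions, annotation, strand setting and any use of molecular identifiers are not given in the sources used here.

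A filter by filterByExpr over the 3 groups at a minimum count of 10 left 15351 genes. Of the 40879 in the table, 14039 had no count. Counts were normalised by TMM and tested in edgeR 4.0.16 with the quasi-likelihood F test, using all 9 libraries and a coefficient for each group. P-values were adjusted over all tested genes by the Benjamini-Hochberg method at 0.05. Standard errors were derived from the F statistic. Alternatives used limma 3.58.1 (voom) and DESeq2 1.42.0 under R 4.3.3. Python 3.11.15 with matplotlib 3.10.9 drew the figures. Likeness used log2 CPM with a prior count of 2. The procedure was tested on simulated data.

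The members and lists were chosen with earlier results of these data known. Named were all 10 members, the 2 most abundant genes of a list, up to 3 with the smallest p, and the 10 most alike. Not every gene that the rule names is printed, and genes outside it (Mpo, Elane, Prtn3, Ctsg, Ltf, Ms4a3 and those at no count or called by DESeq2) were named after their values were seen. Same replicate numbers were not treated as pairs in the main fit, and whether they shared a batch was not tested.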

Additional observations from a re-analysis of the deposited data

How the results depend on the processing

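The alternatives were DESeq2, limma-voom, other normalisations and filters, the older quasi-likelihood form, fits of 6 libraries and leaving out each library. Signs were followed for the 7 members with enough counts, and none changed in a fit that held the gene. Csf3r was not in the fits of 6 libraries against naive. In EAE against naive, edgeR called 0 members, DESeq2 2 and the fits without 1 library 0 to 1. In vehicle against naive, edgeR called 0 members and the fits without 1 library 0 to 1. The 1 called was S100a8 in the first and Csf3r in the second, both without vehicle replicate 2, and Csf3r had to differ to enter that fit. The cause was not tested.

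Over all genes, EAE against naive had 1 call, against 574 by DESeq2, 0 by limma-voom, 20 without a filter, 2 in the older form and 0 to 514 without 1 library. Vehicle against naive had 3 calls, against 1109 by DESeq2, 0 by limma-voom, 20 on library totals, 543 without a filter and 0 to 1652 without 1 library. GV1001 against vehicle had 0 calls, with 1394 genes at an unadjusted p of 0.05, against 13 by DESeq2 and 0 to 8 without 1 library. GV1001 against naive had 0 calls, with 1121 genes at an unadjusted p of 0.05, against 39 by DESeq2, 1 on library totals, 1 without a filter, 1 in the older form, 5 in the fit of 6 libraries and 0 to 3 without 1 library. The highest counts without 1 library in the first 3 comparisons came without vehicle replicate 2. With the replicate number as a block, EAE against naive and vehicle against naive each had 0 calls, and 0 members. Of 9 pairs of libraries with the same number, 2 correlated above 0.1 after group means were removed. Ly6g, Cxcr2 and Il1r2 fell under the main filter. Fitted without a filter, none of them passed against naive, and Cxcr2 in vehicle against naive was at 3.47 with an edgeR adjusted p of 0.0716. The vehicle libraries took part in choosing the genes, so the Cxcr2 value describes more than it tests.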
